A study of Homo sapiens with 4 samples.

Results

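The RNAs described here were the named antisense transcripts of ES2 cells, a human ovarian cancer cell line, in cultures given either vehicle or liquiritigenin (Liq), a plant flavanone known as an agonist of estrogen receptor beta. They were chosen by symbol, either LINC followed by a number or a gene name followed by -AS and 1 digit, with at least 40 reads summed over the 4 samples. Of the 23228 genes listed, 76 had such a symbol, and 32 of these reached 40 reads. All 76 were -AS symbols and 0 were LINC symbols, because the gene table used older names for intergenic RNAs, so the set held antisense RNAs and no long intergenic RNA. Of the other 44 symbols, 25 had no read in any sample and 19 had 1 to 39. The summed count thus chose the RNAs, and their level is given as a description. The contrast between treatments was not part of this rule, but the set was chosen with earlier results of these data known. The sum also includes the Liq reads, and 4 of the 32 RNAs had under 20 reads in a group.

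ES2 cells were grown in medium without phenol red and with charcoal-stripped serum, and received vehicle or 100 μM Liq for 24 h. RNA was sequenced from 2 vehicle samples and 2 Liq samples. Nothing in the sources used here says whether the 2 samples of a group came from separate cultures, so the p-values measure only the spread between these samples, which may be technical. The same line stood behind both groups, and the sample labels name no engineered deletion or transgene. Each sample had 34573053 to 48933893 reads counted on genes, and 3 reads, taken as the floor of detection, corresponded to 0.0613 to 0.0868 CPM, the number of reads scaled to a common library total. Keratins KRT7, KRT8 and KRT18 and the mesenchymal genes VIM and FN1 were well counted, EPCAM was at 1 to 3 reads and CDH1 at 0, and the leukocyte genes PTPRC, CD3E and MS4A1 were at 0 or 1 and CD14 at 3 to 11. Of the endothelial genes, the cadherin gene CDH5 was counted at 1712 to 2239 reads per sample and PECAM1 at 2 to 10. ESR2, the gene of estrogen receptor beta, was at 4 to 14 reads per sample (0.0973 to 0.279 CPM), near the floor, and was not tested. ESR1, the gene of estrogen receptor alpha, was at 17 to 34 reads.

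An antisense RNA is transcribed from the strand opposite to a coding gene, its partner, and takes that gene's symbol. Some start next to the partner's own promoter and run away from it, and others start elsewhere and run across the partner's exons. Most are spliced, polyadenylated, kept at low levels and enriched in the nucleus, and some are known to act on the chromatin or the mRNA of a neighbouring gene, whereas for many no function is established.

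Of the 7 antisense RNAs that rose with Liq, 6 could be placed on GRCh37, the build of the read counts. UBAC2-AS1 lay on the minus strand at chr13:99833477-99853011, TTC28-AS1 on the plus strand at chr22:28315364-28404569, MCM3AP-AS1 on the plus strand at chr21:47649110-47679304, RBM26-AS1 on the plus strand at chr13:79980428-80001452, MYLK-AS1 on the plus strand at chr3:123303990-123363415, and ENTPD3-AS1 on the minus strand at chr3:40355293-40494820. All 6 were annotated as long noncoding RNA genes. Promoter stretches, from 250 bases before to 50 bases after the start of the canonical transcript, are shown for 5 of these RNAs. They are written 5′ to 3′ on the RNA's own strand, and any part inside an exon of a coding gene was left out, which removed the RBM26-AS1 window. The stretches were chr13:99852898-99853027 for UBAC2-AS1, chr22:28315245-28315458 for TTC28-AS1, chr21:47648881-47649180 for MCM3AP-AS1, chr3:123304139-123304438 for MYLK-AS1 and chr3:40494628-40494927 for ENTPD3-AS1. Capitals mark matches, on either strand, to the antioxidant response element core TGACNNNGC bound by NRF2 or to the AP-1 site TGANTCA.
UBAC2-AS1: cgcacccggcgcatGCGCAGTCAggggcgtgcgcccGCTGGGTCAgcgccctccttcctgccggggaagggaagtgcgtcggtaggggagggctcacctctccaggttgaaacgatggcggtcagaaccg
TTC28-AS1: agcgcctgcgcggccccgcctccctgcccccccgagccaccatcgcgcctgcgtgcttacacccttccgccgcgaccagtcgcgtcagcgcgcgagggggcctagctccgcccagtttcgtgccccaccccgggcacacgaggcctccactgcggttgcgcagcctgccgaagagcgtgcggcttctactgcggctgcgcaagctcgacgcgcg
MCM3AP-AS1: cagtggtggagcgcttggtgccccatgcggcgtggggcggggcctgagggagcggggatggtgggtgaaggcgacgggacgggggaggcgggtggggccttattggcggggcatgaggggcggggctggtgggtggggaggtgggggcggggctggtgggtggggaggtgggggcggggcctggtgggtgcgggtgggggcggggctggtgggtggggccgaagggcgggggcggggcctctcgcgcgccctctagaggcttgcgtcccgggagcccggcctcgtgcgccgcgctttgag
MYLK-AS1: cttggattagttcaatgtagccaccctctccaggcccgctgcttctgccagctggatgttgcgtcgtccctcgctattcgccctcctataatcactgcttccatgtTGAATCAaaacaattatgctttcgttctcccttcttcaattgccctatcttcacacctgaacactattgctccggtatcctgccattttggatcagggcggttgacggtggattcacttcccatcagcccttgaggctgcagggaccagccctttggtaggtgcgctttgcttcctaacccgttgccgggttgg
ENTPD3-AS1: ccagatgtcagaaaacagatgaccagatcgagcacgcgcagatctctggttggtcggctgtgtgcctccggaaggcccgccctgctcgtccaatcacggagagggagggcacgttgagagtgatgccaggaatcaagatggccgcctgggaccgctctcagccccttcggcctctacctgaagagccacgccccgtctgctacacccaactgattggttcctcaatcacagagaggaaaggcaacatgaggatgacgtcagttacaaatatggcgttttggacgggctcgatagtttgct

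The TGACNNNGC motif occurred in 6 of the 30 antisense promoters that could be read (20%) and in 14.0% of 18701 coding promoters of the same length. UBAC2-AS1 held 2 matches, beginning 66 and 44 bases before its start, and the others were ARHGEF26-AS1, CDKN2B-AS1, GNAS-AS1, TRAF3IP2-AS1 and ZEB1-AS1. TGANTCA occurred in 3 antisense promoters (10%, against 5.28% of coding promoters), those of AFAP1-AS1, GNAS-AS1 and MYLK-AS1, where it lay 144 bases before the start. The palindromic estrogen response element, also searched on both strands, was in 0 of the 30 antisense promoters and in 0.0321% of coding promoters. The estrogen element also ends in a TGAC core, so a site can match it and TGACNNNGC. These matches describe letters in the windows and not binding.

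The antisense RNAs were rare. Their mean level ran from 0.253 to 170 CPM, with a median of 1.94 CPM, and together they took 0.0261% of the reads on genes. ZNFX1-AS1, better known as ZFAS1 and the host of several small nucleolar RNAs, held 28023 of their 42793 reads. At the lower edge of the choice stood DNMBP-AS1 with 47 reads, CECR5-AS1 with 42 and AFAP1-AS1 with 41, and just outside it IDI2-AS1 with 39, ENO1-AS1 with 37 and UCKL1-AS1 with 29. All 32 passed the filter on low counts that left 13546 genes for the test.

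**Figure D1:**
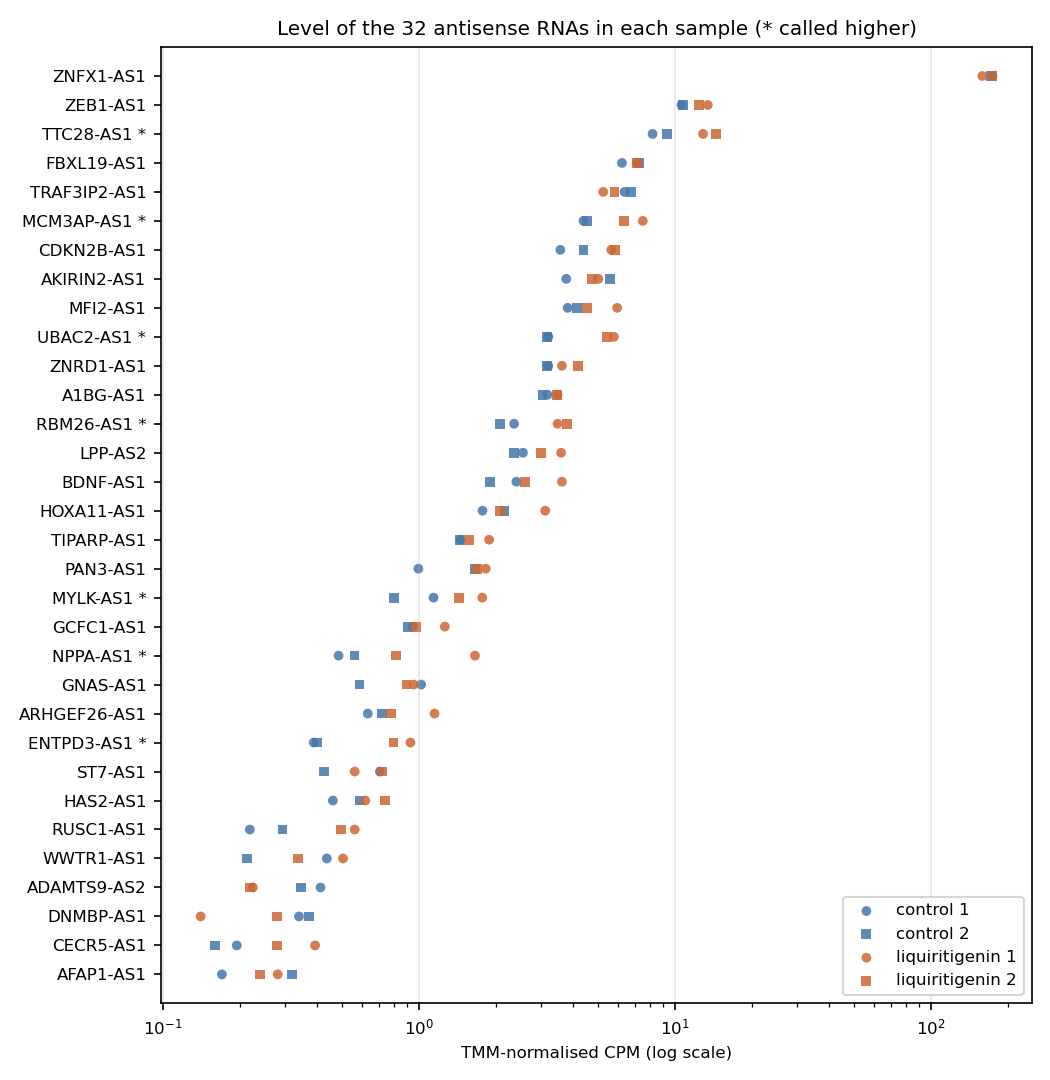
Level of each of the 32 antisense RNAs in the 4 samples. The horizontal axis is CPM on a log scale, each point is 1 sample of vehicle or Liq, and the RNAs are ordered by mean level. Both Liq samples lie above both vehicle samples in 21 of the 32 rows and below them in 3.

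Liq raised 7 of the 32 antisense RNAs and lowered 0. A call needed a change of 1.5-fold or more together with an adjusted p under 0.05 in edgeR's quasi-likelihood test, Benjamini-Hochberg adjusted over all genes tested. Among all 13546 genes, 6.45% were called, 4.29% higher and 2.16% lower. The 7 were UBAC2-AS1, TTC28-AS1, MCM3AP-AS1, RBM26-AS1, MYLK-AS1, NPPA-AS1 and ENTPD3-AS1, with fold changes of 1.54 to 2.27. At an unadjusted p under 0.05 the same fold was passed by 8 RNAs upward, the eighth being RUSC1-AS1, and by 0 downward, beside 5.37% and 2.49% of all genes. In RNA from a whole culture, a change in RNA per cell and a change in the make-up of the cells cannot be told apart.

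UBAC2-AS1, which starts 161 bases from the start of UBAC2, a gene for a membrane protein of the endoplasmic reticulum, was the RNA whose rise held in all 11 refits at the 1.5-fold threshold. Its levels were 3.21 and 3.18 CPM with vehicle and 5.79 and 5.46 CPM with Liq, from 132, 119, 206 and 274 reads. The groups stood well apart, and the log2 fold change was 0.81 ± 0.15 (SE, n = 2 per group; adjusted p = 0.000202 by edgeR). UBAC2 itself did not pass the test, with a log2 fold change of 0.19 and an adjusted p of 0.0769 by edgeR.

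TTC28-AS1 was the most abundant of the 7, at 8.20 and 9.35 CPM with vehicle and 12.9 and 14.5 CPM with Liq. Its log2 fold change was 0.65 ± 0.11 (SE, n = 2 per group; adjusted p = 0.000139 by edgeR), just above the 1.5-fold threshold. It fell under that threshold, at 0.55 without the first vehicle sample, 0.56 without the second Liq sample and 0.58 with loess offsets (scaling fitted along the level of the genes), with adjusted p of 0.000211 to 0.00811 in edgeR. It runs across exons of TTC28, and its start lies 165 bases from that of PITPNB, a phosphatidylinositol transfer protein gene transcribed the other way. PITPNB had a log2 fold change of -0.35, with an adjusted p of 0.00103 by edgeR, and was under 1.5-fold.

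MCM3AP-AS1 was at 4.40 and 4.54 CPM with vehicle and at 7.51 and 6.36 CPM with Liq, again without overlap. Its log2 fold change was 0.62 ± 0.14 (SE, n = 2 per group; adjusted p = 0.00159 by edgeR). It was under 1.5-fold at 0.51 without the first Liq sample and at 0.50 with loess offsets, where the adjusted p by edgeR were 0.00824 and 0.0101. Its partner MCM3AP encodes GANP, a protein of mRNA export. Starting 443 bases away in the opposite direction lies LSS, the lanosterol synthase gene of cholesterol synthesis, which was itself called higher, from 53.1 and 49.4 CPM with vehicle to 92.6 and 84.3 CPM with Liq (log2 fold change 0.79, adjusted p = 5.21e-08 by edgeR).

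RBM26-AS1, which starts 46 bases from the gene of the RNA-binding protein RBM26, was at 2.36 and 2.08 CPM with vehicle and at 3.49 and 3.79 CPM with Liq (log2 fold change 0.71 ± 0.17, adjusted p = 0.00353 by edgeR). Without the second vehicle sample the adjusted p by edgeR was 0.0564, and with loess offsets the log2 fold change was 0.55. RBM26 had a log2 fold change of 0.16 and did not pass the test. MYLK-AS1, which runs through MYLK, the gene of myosin light chain kinase, had 47 and 30 reads with vehicle and 63 and 72 with Liq. It was the call with the largest p, with a log2 fold change of 0.69 ± 0.25 and an adjusted p of 0.0457 by edgeR. The call was lost without either vehicle sample or the first Liq sample, with loess offsets and with DESeq2, with adjusted p from 0.0541 to 0.380. MYLK was far more abundant and had a log2 fold change of 0.23, under 1.5-fold.

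The largest fold changes belonged to 2 RNAs with few reads. NPPA-AS1 had 20 and 21 reads with vehicle and 59 and 41 with Liq, a log2 fold change of 1.18 ± 0.34 (adjusted p = 0.0116 by edgeR), and its partner NPPA, which encodes atrial natriuretic peptide, had 0 reads in all 4 samples. Without the first Liq sample its log2 fold change was 0.64 (adjusted p = 0.247 by edgeR), and the call was also lost without the first vehicle sample (adjusted p = 0.0702) and with DESeq2 (adjusted p = 0.0832). ENTPD3-AS1 had 16 and 15 reads with vehicle and 33 and 40 with Liq, a log2 fold change of 1.11 ± 0.33 (adjusted p = 0.0169 by edgeR). Its call was lost without either vehicle sample or the first Liq sample, with loess offsets and with DESeq2, where the log2 fold change ran from 0.87 to 1.13 and the adjusted p from 0.0647 to 0.162. ENTPD3, the gene of an ectonucleotidase that this RNA crosses, went the other way and was called lower, from 26.3 and 27.5 CPM with vehicle to 14.7 and 14.3 CPM with Liq (log2 fold change -0.89, adjusted p = 1.15e-07 by edgeR).

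Among the abundant antisense RNAs, several did not pass the test. ZNFX1-AS1 had 174 and 172 CPM with vehicle and 159.2 and 174 CPM with Liq, and its log2 fold change of -0.05 had a 95% confidence interval from -0.20 to 0.09. FBXL19-AS1 (0.08) and AKIRIN2-AS1 (0.07) also had overlapping groups, with intervals from -0.18 to 0.34 and from -0.26 to 0.40. TRAF3IP2-AS1, opposite the gene of an adaptor of interleukin signalling, was at 6.37 and 6.76 CPM with vehicle and 5.26 and 5.82 CPM with Liq, so that both Liq samples lay below both vehicle samples, but its log2 fold change of -0.24 had an adjusted p of 0.195 by edgeR.

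Other abundant RNAs were higher in both Liq samples without reaching both thresholds. CDKN2B-AS1, also known as ANRIL, went from 3.57 and 4.41 CPM to 5.65 and 5.84 CPM (log2 fold change 0.53, adjusted p = 0.00902 by edgeR), which passed the p and not the fold. ZEB1-AS1, which shares a promoter region with the gene of the mesenchymal transcription factor ZEB1, was at 10.6 and 10.8 CPM with vehicle and 13.5 and 12.4 CPM with Liq (log2 fold change 0.27, adjusted p = 0.0674 by edgeR). MFI2-AS1 had a log2 fold change of 0.38 (adjusted p = 0.0735 by edgeR), beside 0.43 for its partner MFI2, the melanotransferrin gene.

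Across the set, the log2 fold change was above 0 for 28 of 32 antisense RNAs and for 51.0% of all genes. Both Liq samples lay above both vehicle samples for 21 of the 32, against 31.5% of all genes, and below them for 3, against 30.2%. With no fold threshold 8 RNAs passed the adjusted p, all upward, against 12.6% of all genes that passed it upward. The median log2 fold change was 0.38, with a range from -0.78 to 1.18, and that of all genes was 0.01. The lowest values belonged to ADAMTS9-AS2 (-0.78) and DNMBP-AS1 (-0.69), which had 5 to 17 reads in each sample and whose 95% intervals, from -1.72 to 0.16 and from -1.67 to 0.30, spanned 0.

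Genes of low level tended upward in these samples, so the set was placed beside coding genes with similar summed counts. In 5016 coding genes from the same count classes, each class weighted by its number of antisense RNAs, 11.2% were called higher, 4.58% lower and 65.7% lay above 0, with a median log2 fold change of 0.18. The corresponding values of the antisense RNAs were 21.9%, 0, 87.5% and 0.38, and 23 of the 32 lay above the median of the coding genes in their own class. With loess offsets, the rise of low genes was removed, and the antisense RNAs had 2 calls, UBAC2-AS1 and NPPA-AS1, or 6.25%, beside 5.62% of the coding genes. In that fit 0 of the antisense RNAs and 7.26% of the coding genes were called lower. The median of the antisense RNAs was then 0.20, beside 0.01 for the coding genes, with 24 of 32 above 0 and 22 of 32 above the median of their class. These offsets were fitted to all tested genes along their level, so a coding median near 0 follows from the fit. The same change of scaling moved the calls over all genes from 581 higher and 293 lower (66.5% higher) to 351 and 396 (47.0% higher).

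**Figure D2:**
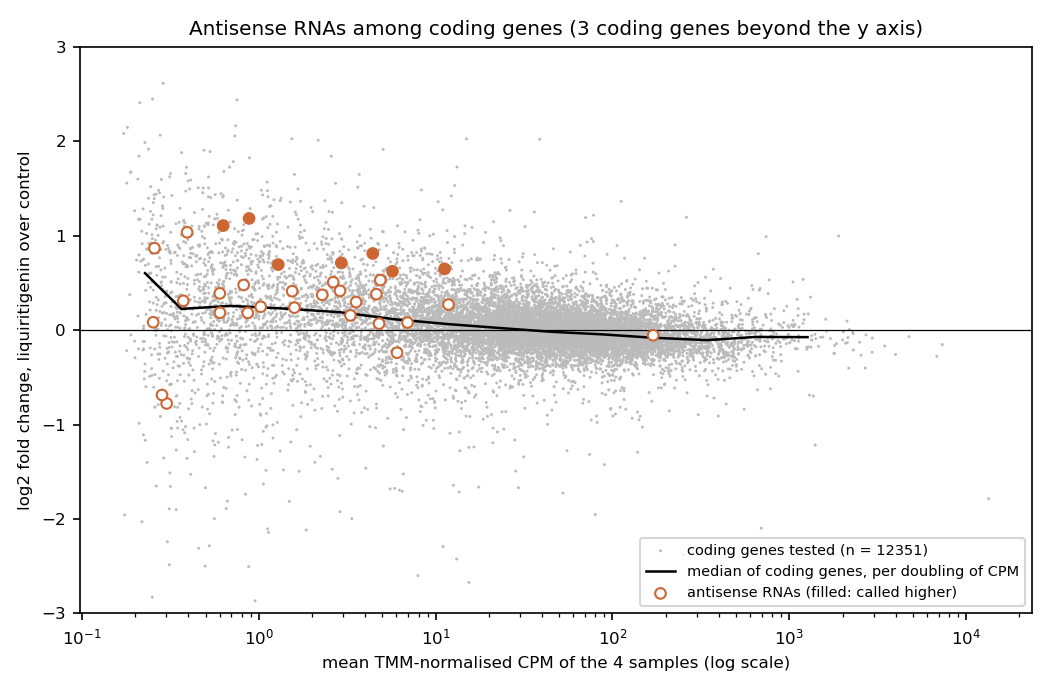
Change with Liq against level. The horizontal axis is the mean level in CPM on a log scale, the vertical axis the log2 fold change of Liq over vehicle, small points are tested coding genes and large points are the 32 antisense RNAs. The antisense RNAs lie mostly above 0, with a median of 0.38, and the coding genes also drift above 0 toward low levels.

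The first Liq sample, the shallowest and the one with the most reads outside genes (9.16%, against 7.75% to 8.36% in the others), was the higher of the Liq pair for 22 of the 32 RNAs, whereas the first vehicle sample was the higher of its pair for 15. The same counts over all genes are not given here, so 22 of 32 has no background. Without the first Liq sample, 3 of the 32 were called higher and the median log2 fold change was 0.24. Without the first vehicle sample 3 were called, without the second vehicle sample 5, and without the second Liq sample 8, with a median of 0.49. Over all genes, the numbers called higher were 505 without the first Liq sample, 423 without the first vehicle sample, 489 without the second vehicle sample and 695 without the second Liq sample.

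The antisense RNAs were next set beside their partners. Of 31 partners tested, 0 were called higher and 3 lower, beside 4.29% and 2.16% of all genes. With no fold threshold, 9 partners passed the adjusted p by edgeR, some upward and some downward, whereas 12.6% of all genes passed it upward. The share of all genes that passed it downward is not given here, so the 9 have no full background. The 3 called lower were ENTPD3, HOXA11 (log2 fold change -0.73, adjusted p = 0.00269 by edgeR) and TIPARP, the gene of an enzyme induced by the aryl hydrocarbon receptor (-0.67, adjusted p = 8.85e-07 by edgeR). HOXA11-AS1 (0.37) and TIPARP-AS1 (0.24) did not pass the test. In 16 pairs the RNA was above 0 and its partner below, in 11 both were above, and in 4 both were below. The log2 fold change of the RNA exceeded that of the partner in 27 of 31 pairs, with medians of 0.37 and -0.07, and across the pairs the 2 values had a Pearson r of -0.03 and a Spearman rho of 0.14, as a description over 31 pairs whose values come from the same 4 libraries. The partner was the more highly counted gene on the CPM scale in 30 pairs, a comparison that takes no account of gene length. The pairs were not matched for level, and the change of coding genes varied with level. Their median log2 fold change was 0.24 at 40 to 79 summed reads and -0.08 at 20480 to 40959. Whether level accounts for the gap between RNA and partner was not tested.

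**Figure D3:**
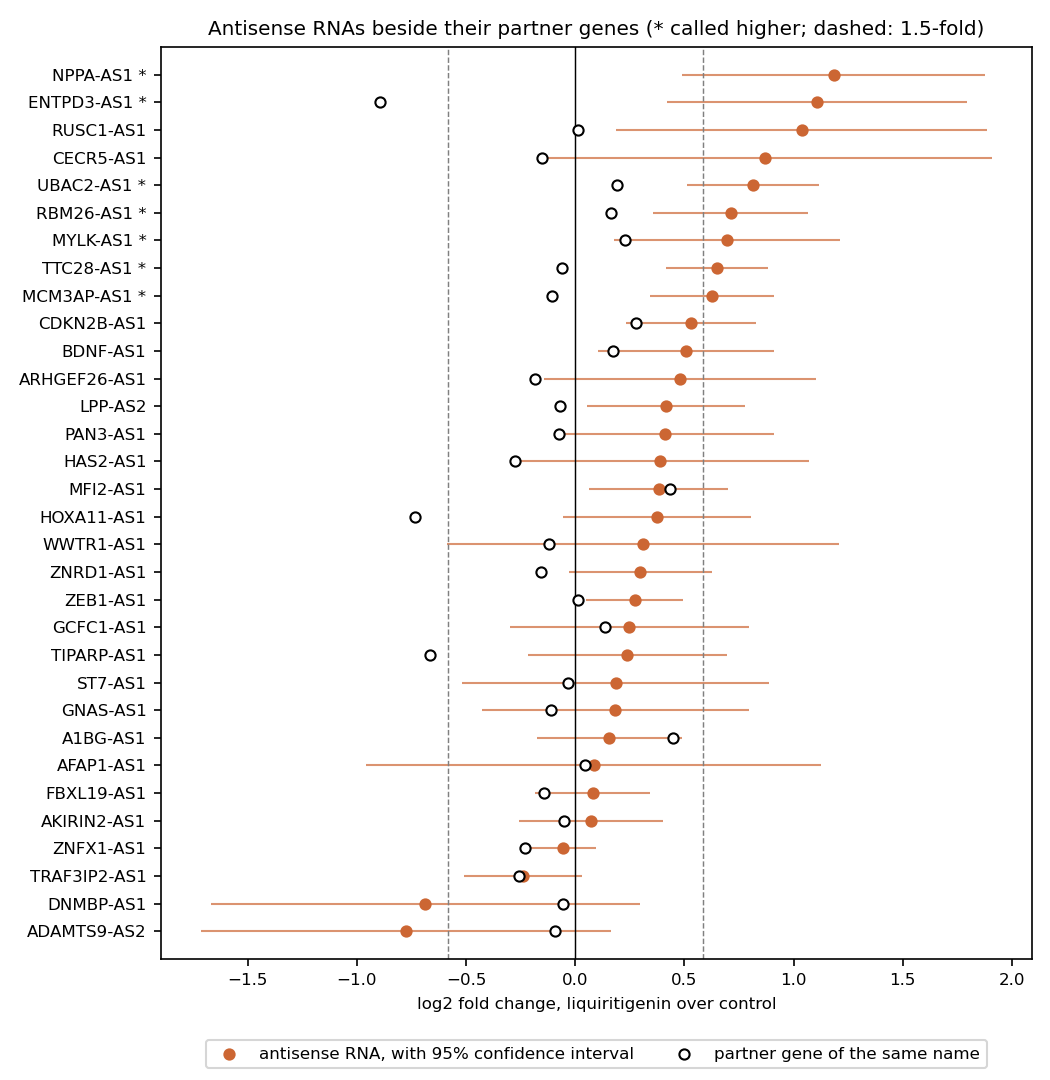
Log2 fold change of Liq over vehicle for the 32 antisense RNAs (filled points, with 95% confidence intervals from edgeR) and for the partner gene of the same name (open points). Dashed lines mark 1.5-fold and asterisks the 7 RNAs called higher. The RNA lies to the right of its partner in 27 of 31 pairs, which were not matched for level.

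The RNAs were also divided by where they start. On GRCh37, 13 RNAs started upstream of the partner's start and ran away from it without overlap of the canonical transcripts, 10 of them within 1000 bases and ZNRD1-AS1, GNAS-AS1 and HAS2-AS1 at 2653, 40518 and 55785 bases. Of these 13, 2 were called higher, 12 were above 0 and the median was 0.39. Another 17 overlapped the partner's canonical transcript or started downstream of its start, and 4 of these were called, 14 were above 0 and the median was 0.37. Over all genes, 4.29% were called higher and 51.0% lay above 0. Of the coding genes in the count classes of the antisense RNAs, 11.2% were called higher and 65.7% lay above 0. The RNAs NPPA-AS1 and AKIRIN2-AS1 could not be placed by symbol. Exons of the RNA and of the partner overlapped in 24 cases and did not in 6, with medians of 0.38 and 0.33. Where exons overlap, reads of the RNA and of the partner can be told apart only by strand. The same holds for reads of unspliced partner RNA that fall on the antisense RNA. Of the 6 without exon overlap, TRAF3IP2-AS1, CDKN2B-AS1, TIPARP-AS1 and ADAMTS9-AS2 still overlapped the span of the partner gene, whereas UBAC2-AS1 and PAN3-AS1 did not. The strand setting of the counting was not given in the sources used here.

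For 17 of the 32 RNAs, the start of a coding gene transcribed the other way lay within 1000 bases upstream of the RNA's start. The distances were 43 to 587 bases, and for 7 of these RNAs that gene was not the one they are named for. Coding starts downstream of the RNA's start, such as those of ZEB1 at 475 bases and HOXA11 at 725 bases, were not counted. Of 16 such neighbours tested, 5 were above 0 and 11 below, beside 51.0% of all genes above 0. LSS was called higher and TIPARP lower, beside 4.29% and 2.16% of all genes. Thus 5 of the 7 RNAs called higher had a neighbour start of this kind, and only LSS among these neighbours was also called higher.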

How the data were processed

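RNA from 2 vehicle and 2 Liq samples of ES2 cells was sequenced by the authors from TruSeq libraries on an Illumina HiSeq. Per the submitters' processing notes, bcl2fastq 2.17.1.14, TopHat2 2.0.8b with hg19 and HTSeq were used, and the authors deposited raw counts per gene, which are whole numbers, neither normalized nor pooled. HTSeq does not count reads that align to several places (35.6% to 36.2% of the tallied alignments) or that overlap several genes (0.545% to 0.557%), which lowers genes with close copies. These tally lines were left out. The annotation release and strand setting are not given in the sources used here. Groups came from the sample labels.

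Counts were tested in edgeR 4.0.16 (R 4.3.3, limma 3.58.1) with filterByExpr (minimum count 10, minimum total 15), TMM scaling and the quasi-likelihood test over all genes. The SE was derived from the fold change and its test statistic. Alternatives were other scalings, filters, a 2-fold threshold, DESeq2 1.42.0, a replicate block and leaving out each sample. RNAs were named with values if called, if among the 10 most abundant, if in a list of well-known RNAs or if beside the count limit, with their partners. The other antisense RNAs and neighbouring genes named were chosen after their values were seen. The RNAs and lists were chosen with earlier results of these data known. Scripts were tested on simulated data. Positions came from GENCODE on GRCh37, where 23 RNAs matched by symbol and 7 by an older symbol, and sequences from the GRCh37 genome. Replicates differed beyond counting noise, with a chi-square per degree of freedom of 6.49 between the vehicle and 11.6 between the Liq samples.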

Additional observations from a re-analysis of the deposited data

How the results depend on the processing

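The count of antisense RNAs called higher, 7 of 32, became 2 with loess offsets, 4 with the DESeq2 Wald test and 2 at a 2-fold threshold, and ran from 3 to 8 when 1 sample was left out. It was 7 with the replicate block. The count called lower was 0 in each alternative. The median log2 fold change of 0.38 became 0.20 with loess offsets, and 0.24 to 0.49 when 1 sample was left out. UBAC2-AS1 was called in all 11 refits at the 1.5-fold threshold (adjusted p 1.19e-06 to 0.00257). MYLK-AS1 and ENTPD3-AS1 were each lost in 5, including DESeq2 and loess offsets, NPPA-AS1 and TTC28-AS1 in 3, and RBM26-AS1 and MCM3AP-AS1 in 2. The other sign was found with loess offsets for ZNFX1-AS1 (0.0127), FBXL19-AS1 (-0.0237), AKIRIN2-AS1 (-0.0604) and AFAP1-AS1 (-0.20). It was also found when 1 sample was left out, with ranges of -0.122 to 0.00836 for ZNFX1-AS1, -0.0288 to 0.193 for FBXL19-AS1, -0.19 to 0.374 for AKIRIN2-AS1 and -0.32 to 0.585 for AFAP1-AS1. The cause of these differences was not tested. Over all genes, 581 were called higher and 293 lower, and DESeq2 called 339 and 227.

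The replicate numbers come from the sample labels. Same-numbered samples deviated together only weakly (correlation over genes 0.05), which cannot show whether they were handled as pairs. With the replicate block the median was 0.38 and 601 genes were called higher and 297 lower. A fit without 1 sample leaves a group with a single sample, which is then assumed to vary like the other group. Reads limit the rarest RNAs: at 41 to 47 summed reads the 95% intervals spanned several-fold, so a change within them could not be detected at this depth.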

Other observations

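Beside the antisense RNAs, other long noncoding RNAs were read from a list of 52 names, of which 33 were tested, 3 (NEAT1, RMRP and RPPH1) were called higher and 0 lower, beside 4.29% and 2.16% of all genes, with a median log2 fold change of 0.11. NEAT1, the scaffold RNA of paraspeckles, went from 175 and 240 CPM with vehicle to 716 and 521 CPM with Liq (log2 fold change 1.58, adjusted p = 5.17e-11 by edgeR). MALAT1, its neighbour on the chromosome and also a nuclear RNA, had 84.9 and 134 CPM with vehicle and 151 and 111 CPM with Liq, and did not pass the test (log2 fold change 0.26, adjusted p = 0.153 by edgeR). RMRP, the RNA of the RNase MRP ribonucleoprotein, had 131 and 113 reads with vehicle and 509 and 145 with Liq, and RPPH1, the RNA of RNase P, had 27 and 27 with vehicle and 80 and 36 with Liq, so that 2 of the 3 calls had only the first Liq sample above the others (14.3 against 2.89 CPM in the second for RMRP, and 2.25 against 0.717 CPM for RPPH1).

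Rows under the older NCRNA symbols were looked at after the files had been seen. Of 119 such rows 35 had at least 40 reads, 4 were called higher and 1 lower, with a median log2 fold change of 0.06. Over all genes 4.29% were called higher and 2.16% lower, and the coding genes in the count classes of the antisense RNAs had 11.2% called higher. NCRNA00261 was the lower one, from 22.1 and 25.2 CPM with vehicle to 15.5 and 14.9 CPM with Liq (log2 fold change -0.64, adjusted p = 3.53e-05 by edgeR). NCRNA00247 rose from 1.29 and 1.496 CPM to 2.53 and 2.33 CPM (log2 fold change 0.80, adjusted p = 0.00568 by edgeR). NCRNA00152, the older symbol of the RNA known as CYTOR, had a log2 fold change of -0.29 and was under 1.5-fold.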
